A study of Mus musculus with 16 samples.

Results

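The 10 genes described here encode receptor chains through which T cells sense interleukins 2, 7, 12, 15, 18 and 33 and interferon gamma. They were chosen by name: Il2ra, Il2rb, Il2rg, Il7r, Il12rb1, Il12rb2, Il18r1, Il18rap, Il1rl1 and Ifngr1, which are 10 of the 55573 genes in the deposited count table. The rule used gene names and no expression value, but the choice was made with earlier results of these data known. All 10 passed the filter on low counts, which left 13711 genes for testing.

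The RNA came from C57BL/6 mouse OT1 cells, CD8 T cells that all carry 1 transgenic T cell receptor, which recognises ovalbumin. The cells had been transferred into tumour-bearing mice as a mixture of Foxp3UP and Mock cells and were sorted from tumour cell suspensions after 5 days by viability and by CD8, CD45.1 and/or CD90.1. Foxp3 is the factor that defines regulatory T cells, and the study asks what its expression changes in CD8 T cells used for therapy. There were 4 groups of 4 libraries, named Foxp3UP with its control MockUP and Foxp3DN with its control MockDN. UP and DN are used as names, because the sources used here give neither their meaning nor the way in which Foxp3 was introduced. The age of the animals, and whether libraries of a group came from different animals, are likewise not given in the sources used here.

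Library totals lay between 9389477 and 13226590 counts. The CD8 T cell markers Cd3e, Cd3d, Cd8a, Cd8b1, Ptprc and Cd2 summed to between 4799 CPM (counts scaled to library size), the lowest MockUP library, and 7037 CPM, the highest Foxp3UP library, and Cd4 had 0 to 8 counts in a library. Foxp3 itself stood at 23.6 ± 6.82 CPM in Foxp3UP and 12.4 ± 1.12 CPM in MockUP (log2 fold change 0.92, edgeR adjusted p = 0.00233), and at 10.3 ± 0.130 CPM in Foxp3DN and 12.9 ± 1.52 CPM in MockDN (SD, n = 4 each; adjusted p = 1.00). In replicates 1 and 2 alone the adjusted p for Foxp3UP against MockUP was not under 0.05. Foxp3DN lay below MockDN without overlap, at 10.1 to 10.4 against 11.0 to 14.6 CPM, where 1.15% of all genes did not overlap. The log2 fold change there was -0.33 (edgeR unadjusted p = 0.0749). The library MockUP 2 was the lowest MockUP library for Il2rg and Il18r1 and the highest for Il2ra, Il2rb, Il7r, Il12rb1, Il12rb2 and Il18rap. It was singled out from these values, and Dixon's ratio, an outlier check given below, flagged no MockUP library. Results that depend on it are also given without it, as a description.

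Receptors of the common gamma chain family signal through the kinases JAK1 and JAK3 and STAT5, and IL-2, IL-7 and IL-15 acting through them support proliferation and survival of CD8 T cells. The receptor for IL-12 signals through TYK2, JAK2 and STAT4 and promotes interferon gamma production, which IL-18, acting through MyD88, strengthens. Receptors of both families work as pairs or trios of chains, so that the response to a cytokine can depend on the least abundant chain.

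Among the receptor chains, Il12rb1 was higher and Il18rap lower in Foxp3UP than in MockUP, both without overlap of the groups and both also called in the difference between the UP and DN arms. Il12rb1 was 2.42-fold higher and Il18rap 1.57-fold lower. Ifngr1 was 1.20-fold higher, a call close to the threshold. The other 7 chains did not pass when fitted by group alone, and no chain passed in Foxp3DN against MockDN or in MockUP against MockDN. In bulk RNA, fewer cells of a type and less RNA per cell cannot be told apart.

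In counts, 3 of the 10 chains were called in Foxp3UP against MockUP, 2 higher and 1 lower (edgeR quasi-likelihood test, Benjamini-Hochberg adjusted p under 0.05 over all genes), where 12.1% of all tested genes were called, 6.08% higher and 5.99% lower. The groups did not overlap for 3 of the 10 chains, where 15.9% of all genes did not overlap. The fit that takes the replicate number as a block called 7 of 10 chains, where 25.3% of all genes were called, 4 of them higher (13.3% of all genes) and 3 lower (12% of all genes). Replicates 1 and 2 alone gave 1 of 10 chains, where 0.221% of genes were called, and replicates 3 and 4 alone gave 6 of 10, where 22.2% were. Without MockUP 2, singled out after its chain values were seen, the count was 5 of 10, where 13.1% of genes were called. With library totals in place of TMM scaling, 3 of 10 were called (Il12rb1 higher, Il18rap and Il18r1 lower), where 12.6% of genes were called, and the split over all genes was 646 higher and 1081 lower, against 833 higher and 821 lower with TMM. The median log2 fold change of the 10 chains was 0.02, beside 0.004 over all genes.

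**Figure D1:**
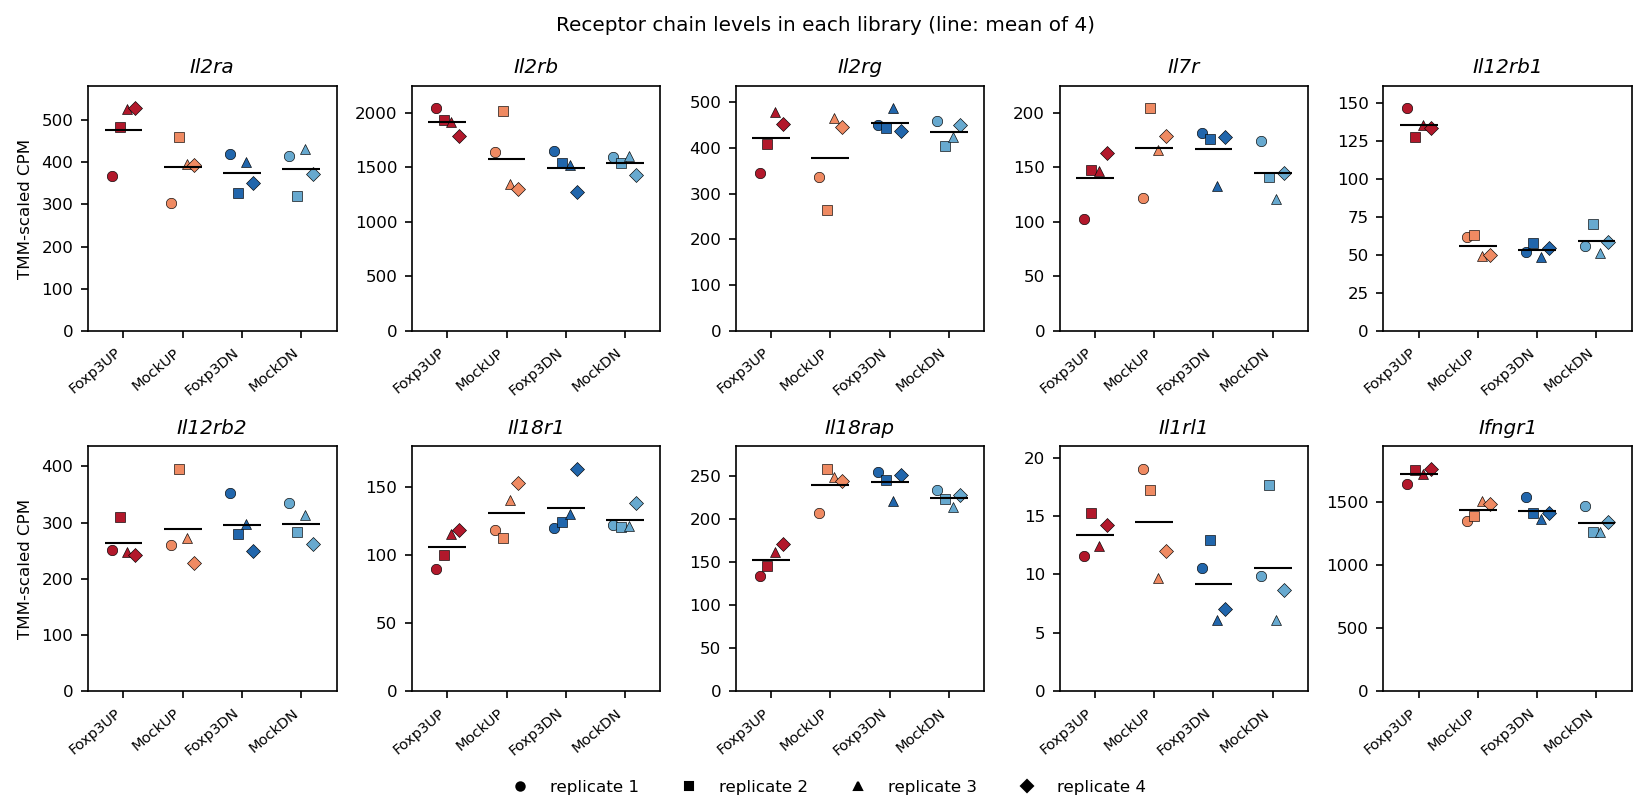
TMM-scaled CPM of the 10 receptor chains in each of the 16 libraries, by group, with point shapes for replicate numbers and a line at the group mean. Il12rb1 lies at 128 to 147 CPM in Foxp3UP, above the 48.7 to 70.6 CPM of all other libraries, and Il18rap lies at 133 to 170.2 CPM in Foxp3UP, below the 206 CPM of the lowest other library.

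Il12rb1 encodes the chain shared by the receptors for IL-12 and IL-23 (ENSMUSG00000000791, mm10 chr8:70808449-70821424, plus strand). It measured 147, 128, 136 and 134 CPM in Foxp3UP 1 to 4, against 61.7, 62.9, 49.4 and 50.2 CPM in MockUP 1 to 4. Every Foxp3UP library was above every library of the other 3 groups, whose DN values were 48.7 to 58.2 CPM in Foxp3DN and 51.7 to 70.6 CPM in MockDN. The means were 136 ± 7.92 CPM in Foxp3UP and 56.0 ± 7.27 CPM in MockUP (SD, n = 4 each), a log2 fold change of 1.28 ± 0.11 (SE, edgeR adjusted p = 1.94e-06). The same-numbered pairs gave differences of 1.24, 1.02, 1.45 and 1.40 in log2(CPM + 0.5). The call was kept in each of the alternative fits, including replicates 1 and 2 alone (1.14, adjusted p = 0.0312) and replicates 3 and 4 alone (1.41, adjusted p = 1.27e-08). In Foxp3DN against MockDN the log2 fold change was -0.15 (95% interval -0.36 to 0.07), although Foxp3DN was below MockDN in 4 of 4 same-numbered pairs.

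Il12rb2 encodes the chain that gives the receptor its specificity for IL-12 and that recruits STAT4 (ENSMUSG00000018341, chr6:67291318-67376188, minus strand). It measured 252, 309.6, 247 and 243 CPM in Foxp3UP, against 261, 396, 273 and 228 CPM in MockUP. The groups overlapped, with MockUP 2 the highest library of the series, and the log2 fold change was -0.14 ± 0.15 (SE, 95% interval -0.44 to 0.16, edgeR adjusted p = 0.613). Without MockUP 2 it was 0.046 (adjusted p = 0.860). Il12rb2 overlaps Serbp1, which lies on the opposite strand, and since no source used here says whether counting was strand-specific, reads there may be shared. In Foxp3DN and MockDN its means were 295 ± 43.2 and 298 ± 32.5 CPM.

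The ratio of the IL-12 receptor chains also set Foxp3UP apart. Per kilobase of exonic length, the scale on which levels of different genes are compared here, Il12rb1 stood at 0.538, 0.381, 0.508 and 0.508 of the Il12rb2 level in Foxp3UP 1 to 4, against 0.219, 0.147, 0.167 and 0.204 in MockUP 1 to 4. Ratios in Foxp3DN were 0.136 to 0.202 and in MockDN 0.152 to 0.231, so no library outside Foxp3UP reached the lowest Foxp3UP ratio. On this scale Il12rb1 was thus the less abundant transcript of the pair in all 16 libraries, by 1.86 to 2.62 times in Foxp3UP and by 4.57 to 6.81 times in MockUP. The scale uses the summed exon length and not that of the transcripts present, and the overlap with Serbp1 may alter the Il12rb2 level. The other partner of Il12rb1, the IL-23 receptor chain Il23r, had 0 to 5 counts in a library and was not tested.

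The stretch before the start of Il12rb2 is shown because it belongs to the chain of the IL-12 receptor that was not called and holds a match to the STAT motif TTCNNNGAA, printed in capitals. The 250 bases, credited to RefSeq on GRCm38.p6, lie at chr6:67376189-67376438 on the minus strand and touch no annotated exon.
Il12rb2 promoter: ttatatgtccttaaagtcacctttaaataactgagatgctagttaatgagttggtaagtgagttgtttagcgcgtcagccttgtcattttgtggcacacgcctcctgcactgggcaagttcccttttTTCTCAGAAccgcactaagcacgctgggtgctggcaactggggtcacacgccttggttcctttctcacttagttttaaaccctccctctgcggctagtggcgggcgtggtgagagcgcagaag

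Il18r1 and Il18rap encode the IL-18-binding chain and the accessory chain of the IL-18 receptor, and with Il1rl1 they lie side by side in the IL-1 receptor gene cluster on chromosome 1, all on the plus strand. Il18rap (ENSMUSG00000026068, chr1:40515362-40551705) measured 133, 145, 161 and 170.2 CPM in Foxp3UP, against 206, 258, 249 and 244 CPM in MockUP. No Foxp3UP library reached the level of any library of the other groups, which lay at 220.1 to 254 CPM in Foxp3DN and 214 to 234 CPM in MockDN. The means were 152 ± 16.4 CPM in Foxp3UP and 239 ± 22.8 CPM in MockUP (SD, n = 4 each), and the log2 fold change was -0.65 ± 0.09 (SE, edgeR adjusted p = 0.000451). The same-numbered pairs differed by -0.63, -0.83, -0.63 and -0.52 in log2(CPM + 0.5). The call ended in replicates 1 and 2 alone, where the log2 fold change was -0.74 (adjusted p = 0.0949), and held in replicates 3 and 4 alone (-0.59, adjusted p = 5.04e-05).

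Il18r1 (ENSMUSG00000026070, chr1:40465552-40500854) measured 90.1, 99.8, 115 and 119 CPM in Foxp3UP, against 118, 112, 140.1 and 153 CPM in MockUP. The groups overlapped, although each Foxp3UP library was below the MockUP library of its number. The log2 fold change was -0.31 ± 0.12 (SE, edgeR adjusted p = 0.116) and was called with the replicate block (-0.30, adjusted p = 0.00456), with library totals (adjusted p = 0.0485) and without MockUP 2 (-0.38, adjusted p = 0.0400). In Foxp3DN it averaged 135 ± 19.7 CPM and in MockDN 125 ± 8.52 CPM.

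Per kilobase, the Il18r1 level was 0.947, 0.965, 1.00 and 0.977 of the Il18rap level in Foxp3UP 1 to 4, against 0.803, 0.611, 0.789 and 0.881 in MockUP 1 to 4. In Foxp3UP both transcripts were at nearly equal levels per kilobase, whereas in every MockUP library Il18rap was the more abundant. It was so in every DN library too, with ratios of 0.662 to 0.915 in Foxp3DN and 0.732 to 0.854 in MockDN. Il18, the gene of the ligand, was itself at 3.68 ± 0.823 CPM in Foxp3UP and 1.39 ± 0.803 CPM in MockUP (edgeR adjusted p = 0.0199, log2 fold change 1.38 ± 0.36 SE), a low level. That call ended without Foxp3UP 1, Foxp3UP 3 or MockUP 3, with adjusted p up to 0.0593.

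The DNA before Il18rap, the chain that fell, is shown with the whole stretch that separates Il1rl1 from Il18r1, which is 136 bases long and is all that lies between them. The first lies at chr1:40515112-40515361 and the second at chr1:40465416-40465551, both on the plus strand of GRCm38.p6 and credited to RefSeq, and neither touches an annotated exon.
Il18rap promoter: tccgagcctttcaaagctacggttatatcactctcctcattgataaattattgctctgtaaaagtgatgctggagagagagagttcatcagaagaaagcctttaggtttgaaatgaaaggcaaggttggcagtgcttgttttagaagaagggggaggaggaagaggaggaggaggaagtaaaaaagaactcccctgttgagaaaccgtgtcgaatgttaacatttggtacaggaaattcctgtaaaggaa
Il1rl1 to Il18r1: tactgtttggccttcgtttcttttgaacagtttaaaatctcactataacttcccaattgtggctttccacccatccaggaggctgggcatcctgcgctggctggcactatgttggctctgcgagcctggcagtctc

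Promoter entries were found for 8 of the 10 chains (all but Il2rb and Il12rb1), in 11 windows of 250 bases before an annotated start. The forkhead motif GTAAACA, read on both strands (TGTTTAC on the other), was found in 1 of the 11 windows, one of Il1rl1, and in 3.17% of all 32851 promoters of the table. The STAT motif TTCNNNGAA, which reads the same on both strands, was found in 3 of the 11 windows, belonging to Il18r1, Il12rb2 and Il7r, and in 7.02% of all promoters. Of the windows with a match, only that of Il12rb2 lies outside the gene coordinates given here. Those of Il1rl1 (chr1:40439379-40439628), Il18r1 (chr1:40465756-40466005) and Il7r (chr15:9529877-9530126) lie inside their genes. Some windows of Il18r1 also overlap each other, so the 11 are not independent. No match of either motif overlapped one of the other. These are matches of letters, and no binding was measured.

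Il1rl1 encodes ST2, the receptor chain for IL-33 (ENSMUSG00000026069, chr1:40429570-40465415, plus strand), and had the lowest level of the 10 chains. It measured 11.5, 15.3, 12.4 and 14.2 CPM in Foxp3UP, against 19.1, 17.3, 9.69 and 12.0 CPM in MockUP. The groups overlapped and the log2 fold change was -0.12 ± 0.29 (SE, 95% interval -0.69 to 0.45, edgeR adjusted p = 0.842). It turned with the replicates, at -0.44 in replicates 1 and 2 alone and 0.28 in replicates 3 and 4 alone, neither called, and was -0.034 without MockUP 2 (adjusted p = 0.968). Within MockUP, Foxp3DN and MockDN, replicates 1 and 2 were above replicates 3 and 4 without overlap, by 1.68, 1.78 and 1.86 times, whereas in Foxp3UP the ratio was 1.01. Its accessory chain Il1rap stood at 13.3 ± 1.34 CPM in Foxp3UP and 16.5 ± 0.430 CPM in MockUP, without overlap (edgeR adjusted p = 0.0707, or 0.0483 with the replicate block; log2 fold change -0.31 ± 0.11 SE).

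**Figure D2:**
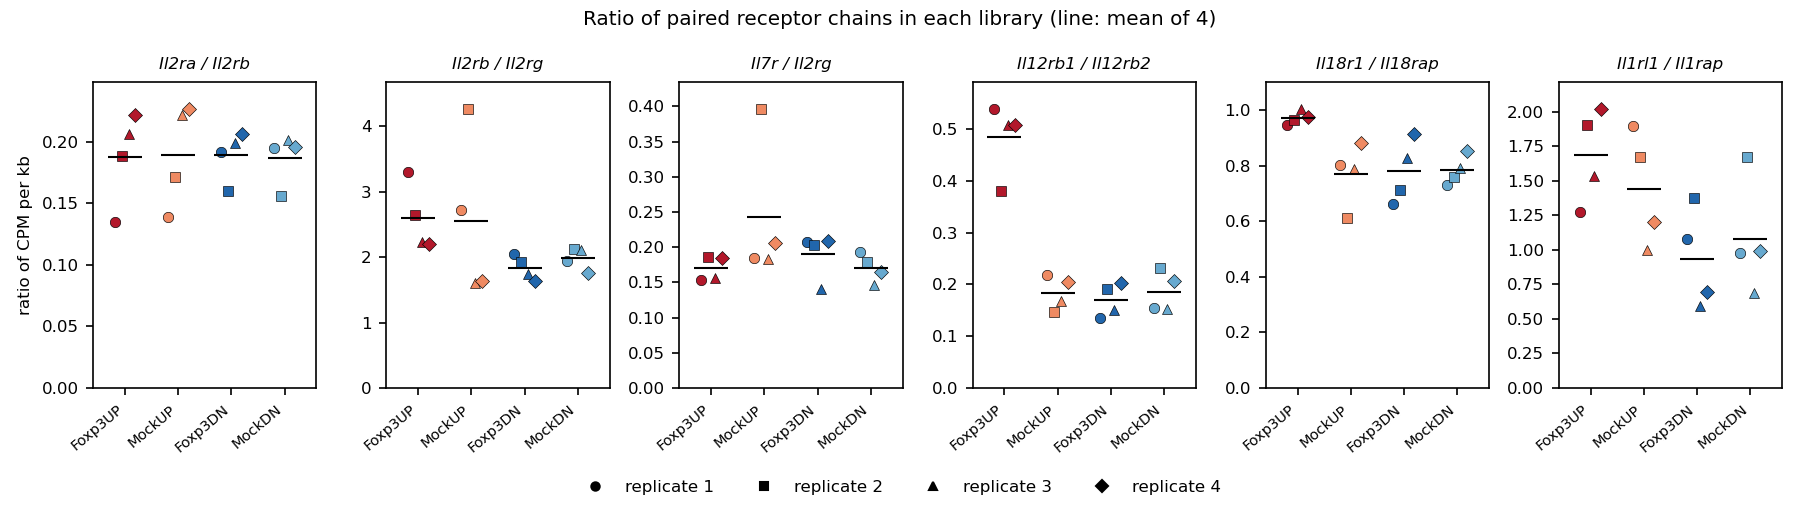
Ratio of the levels per kilobase of paired receptor chains in each library, by group, with a line at the group mean. Il12rb1 to Il12rb2 lies at 0.381 to 0.538 in Foxp3UP, above all other libraries, and Il18r1 to Il18rap at 0.947 to 1.00, above the 0.915 of the highest other library, whereas Il2ra to Il2rb has nearly the same mean in the 4 groups.

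Il2ra encodes CD25, the chain that gives the IL-2 receptor its high affinity (ENSMUSG00000026770, chr2:11642807-11693193, plus strand). It measured 367, 484, 527 and 528 CPM in Foxp3UP, against 303, 460.4, 397 and 393 CPM in MockUP. Foxp3UP 1 lay within the MockUP range and the other 3 Foxp3UP libraries above it. The log2 fold change was 0.30 ± 0.14 (SE, 95% interval 0.02 to 0.57, edgeR adjusted p = 0.193), and the chain was called with the replicate block (0.30, adjusted p = 0.00613), which compares same-numbered libraries, of which 4 of 4 were higher in Foxp3UP. It was 0.15 in replicates 1 and 2 alone (adjusted p = 0.743) and 0.40 in replicates 3 and 4 alone (adjusted p = 0.00224). Without MockUP 2 the log2 fold change was 0.38 (edgeR adjusted p = 0.0738). An unclassified gene model, Gm37881, overlaps Il2ra on the same strand, with 1671 counts over all libraries against 71486 for Il2ra.

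Il2rb encodes CD122, the chain shared by the receptors for IL-2 and IL-15 (ENSMUSG00000068227, chr15:78479256-78495271, minus strand). It measured 2043, 1933, 1920 and 1788 CPM in Foxp3UP, against 1643, 2020, 1344 and 1306 CPM in MockUP. The overlap came from MockUP 2 alone, since the other 3 MockUP libraries were below all of Foxp3UP. The log2 fold change was 0.28 ± 0.13 (SE, edgeR adjusted p = 0.157), 0.42 without MockUP 2 (adjusted p = 0.0142) and 0.31 with the replicate block (adjusted p = 0.0193). The DN means were 1495 ± 157 CPM in Foxp3DN and 1545 ± 82.1 CPM in MockDN.

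Il2rg encodes the common gamma chain itself (ENSMUSG00000031304, chrX:101264378-101268255, minus strand). It measured 344, 408, 479 and 452 CPM in Foxp3UP, against 336, 264, 464 and 446 CPM in MockUP, and the groups overlapped. The log2 fold change was 0.16 ± 0.15 (SE, 95% interval -0.13 to 0.44, edgeR adjusted p = 0.537) and 0.014 without MockUP 2, the lowest library of the series (adjusted p = 0.961). In the DN arm the libraries lay close together, at 454 ± 22.5 CPM in Foxp3DN and 434 ± 25.4 CPM in MockDN. A protein-coding model, Gm20489, overlaps Il2rg on the same strand and had 16 counts over all libraries.

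Il7r encodes CD127, the IL-7 receptor chain that marks long-lived T cells (ENSMUSG00000003882, chr15:9505788-9530176, minus strand). It measured 103, 148, 146 and 163 CPM in Foxp3UP, against 121, 204, 166 and 179 CPM in MockUP. Each Foxp3UP library was below the MockUP library of its number, with differences of -0.24, -0.46, -0.18 and -0.13 in log2(CPM + 0.5), although the groups overlapped. The log2 fold change was -0.26 ± 0.16 (SE, edgeR adjusted p = 0.333; adjusted p = 0.0181 with the replicate block). Without MockUP 2, the highest library of the series, it was -0.15 (adjusted p = 0.603). The DN arm had the opposite direction, with 182, 176, 133 and 178 CPM in Foxp3DN against 174, 141, 121 and 145 CPM in MockDN (log2 fold change 0.20, not called).

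Per kilobase, Il2ra averaged 0.188 ± 0.0378 of the Il2rb level in Foxp3UP and 0.189 ± 0.0421 in MockUP, and in the DN arm 0.189 ± 0.0206 in Foxp3DN against 0.187 ± 0.0209 in MockDN (SD, n = 4 each). The ratio of the IL-2 receptor chains therefore differed between group means by far less than between libraries of 1 group. The ratio of Il2rb to Il2rg was 2.20 to 3.31 in Foxp3UP and 1.61 to 4.26 in MockUP, against 1.63 to 2.04 in Foxp3DN and 1.76 to 2.13 in MockDN. All 4 Foxp3UP libraries were above those of both DN groups in that ratio, but the MockUP libraries, with MockUP 2 the highest, spanned their whole range. Il7r to Il2rg was 0.153 to 0.186 in Foxp3UP and 0.183 to 0.396 in MockUP, with the highest value in MockUP 2. The Foxp3UP values lay within the ranges of both DN groups, 0.140 to 0.209 in Foxp3DN and 0.146 to 0.194 in MockDN.

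Ifngr1 encodes the ligand-binding chain of the interferon gamma receptor (ENSMUSG00000020009, chr10:19591949-19610229, plus strand) and was the most abundant of the 10 chains per kilobase. It measured 1637, 1752, 1719 and 1760 CPM in Foxp3UP, against 1344, 1389, 1505 and 1479 CPM in MockUP. The groups did not overlap, and the Foxp3UP libraries were also above all DN libraries, which lay at 1359 to 1535 CPM in Foxp3DN and 1258 to 1462 CPM in MockDN. The log2 fold change was 0.26 ± 0.08 (SE, 95% interval 0.10 to 0.43, edgeR adjusted p = 0.0495). The call was lost with RLE size factors (adjusted p = 0.0555), library totals (0.0869), no filter (0.178) and only the groups compared (0.198), in replicates 1 and 2 alone (0.290) and in 7 of 8 fits without a single library (0.0615 to 0.112). It held without MockUP 2 (0.0493), with the stricter filter (0.0480), in replicates 3 and 4 alone (0.0498), with the replicate block (0.00275) and with DESeq2 (0.00243). The signalling partner Ifngr2 had 19 to 50 counts in a library, at 2.03 to 3.36 CPM in Foxp3UP and 2.03 to 4.65 CPM in MockUP (adjusted p = 0.811).

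**Figure D3:**
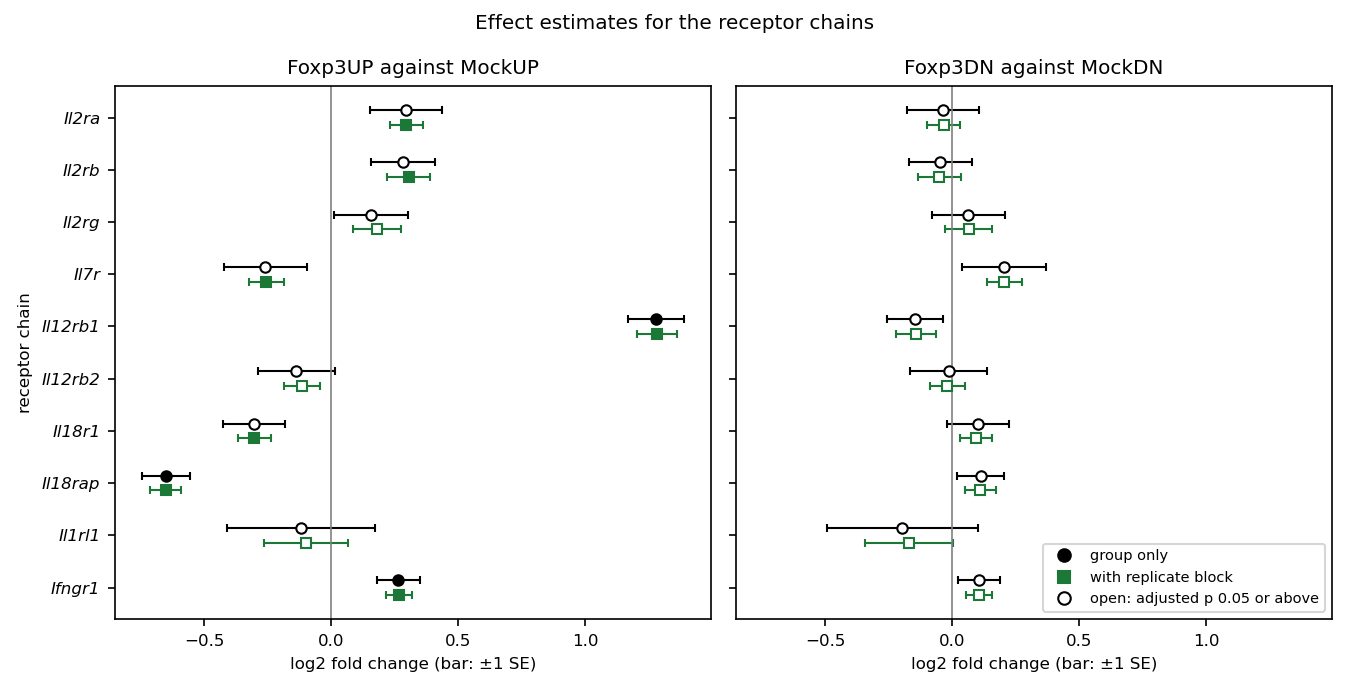
Log2 fold change of each receptor chain with 1 SE, in Foxp3UP against MockUP on the left and Foxp3DN against MockDN on the right, from the fit by group (circles) and with the replicate block (squares), filled where the adjusted p is under 0.05. In the UP arm Il12rb1 stands at 1.28 and Il18rap at -0.65, and in the DN arm all 10 chains lie between -0.20 and 0.20 with no call.

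In Foxp3DN against MockDN 0 of 10 chains were called by edgeR, where 0.00729% of all genes were called (1 gene), and 0 of 10 stood without overlap of the groups, where 1.15% of genes did. No chain had an unadjusted p under 0.05 (lowest 0.196), and DESeq2 called 0. The chains with the widest 95% intervals were Il1rl1, at -0.78 to 0.39, and Il7r, at -0.12 to 0.52, and that of Il18rap was -0.07 to 0.29. MockUP against MockDN likewise had 0 of 10 called by edgeR, where 0.00729% of genes were called, with 0 standing without overlap, where 1.85% of genes did, 0 at an unadjusted p under 0.05, a lowest unadjusted p of 0.136 and 0 called by DESeq2. Log2 fold changes there ran between -0.20 for Il2rg and 0.46 for Il1rl1.

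The test of the difference between the arms, the Foxp3UP-to-MockUP effect minus the Foxp3DN-to-MockDN effect, called 2 of the 10 chains, where 1.83% of all genes were called (251 genes). Il12rb1 differed by 1.43 ± 0.16 (SE, edgeR adjusted p = 8.93e-05), where 0.963% of genes were called in that direction, and Il18rap by -0.76 ± 0.13 (adjusted p = 0.00693), where 0.868% were. Ifngr1, called in the UP arm alone, differed by 0.16 ± 0.12 (adjusted p = 0.567), so its effects in the arms were not shown to differ. With the replicate block 5 of 10 were called, where 12.7% of genes were, adding Il7r at -0.46 (adjusted p = 0.00966), Il18r1 at -0.40 (adjusted p = 0.0136) and Il2ra at 0.33 (adjusted p = 0.0365). In replicates 1 and 2 alone 0 of 10 were called, where 0.0143% of genes were (Il12rb1 1.33, adjusted p = 0.181; Il18rap -0.87, adjusted p = 0.398), and in replicates 3 and 4 alone 5 of 10, where 12.4% were.

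The order of the chains per kilobase was led in all 4 groups by Ifngr1, Il2rb and Il2rg, which did not overlap each other within a group. In Foxp3UP they averaged 603, 448 and 176 CPM per kilobase, and Ifngr1 and Il2rb made up 40.5% and 30.1% of the summed level of the 10 chains. Il2ra at 83.5 and Il12rb2 at 69.3 CPM per kilobase came next in Foxp3UP and overlapped each other, as they did in the other groups, where Il12rb2 had the higher mean. Il12rb1 at 33.1, Il7r at 30.0, Il18rap at 22.6 and Il18r1 at 22.0 CPM per kilobase followed in Foxp3UP, and each overlapped its neighbour. Il1rl1 was last in all 4 groups, at 1.94 CPM per kilobase in Foxp3UP and 2.10 in MockUP.

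Il12rb1 was sixth of 10 in that order in Foxp3UP and ninth in each of the other groups. Il18rap was eighth in Foxp3UP, against seventh in MockUP and sixth in both DN groups, and it overlapped Il7r in all 4. The mean level of Il12rb1 was 33.1 CPM per kilobase in Foxp3UP, against 13.7 in MockUP, 13.0 in Foxp3DN and 14.4 in MockDN, and in each group but Foxp3UP it lay below Il18r1 without overlap. Among all tested genes its level per kilobase stood at the 87.0th percentile in Foxp3UP and at the 71.5th percentile in MockUP. Il18rap stood at the 81.0th percentile in Foxp3UP and the 87.9th in MockUP.

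**Figure D4:**
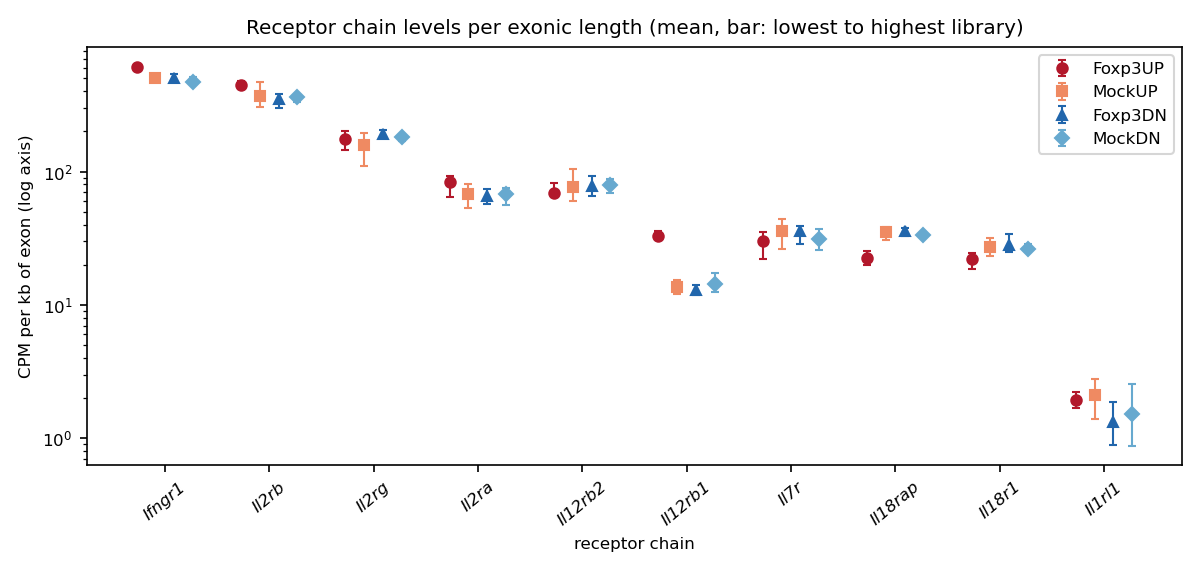
Mean level per kilobase of exonic length of the 10 receptor chains in each group on a log axis, with bars from the lowest to the highest library. Il12rb1 is at 33.1 CPM per kilobase in Foxp3UP and 13.0 to 14.4 in the other 3 groups, while Ifngr1, Il2rb and Il2rg keep the top places in all groups.

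Other cytokine receptor chains were described from a list of 28, of which 23 passed the filter. In Foxp3UP against MockUP 2 were higher and 0 lower, with a median log2 fold change of -0.02. For this and the following lists, the shares over all tested genes were 6.08% higher and 5.99% lower, or 13.3% and 12% with the replicate block. Il27ra, the IL-27 receptor chain, was at 145 ± 14.1 CPM in Foxp3UP and 115 ± 4.79 CPM in MockUP (log2 fold change 0.33, edgeR adjusted p = 0.0107). Il10rb, shared by the receptors for IL-10 and related cytokines, was at 45.4 ± 1.09 CPM in Foxp3UP and 33.5 ± 5.76 CPM in MockUP (0.44, adjusted p = 0.0233), a call lost without Foxp3UP 1, 3 or 4 (adjusted p up to 0.0584). With the replicate block 6 were higher and 4 lower, among them Il1r2, the decoy receptor for IL-1, at 0.96 (adjusted p = 1.29e-05), and Il15ra, the IL-15-presenting chain, at -0.47 (adjusted p = 0.00222). Il1r2 and Il15ra were named after their values were seen. Il1r2 had means of 68.0 ± 38.0 CPM in Foxp3UP and 35.3 ± 21.2 CPM in MockUP, and in every group its replicates 1 and 2 were above replicates 3 and 4, by 2.85 to 3.31 times.

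Of 20 genes of JAK-STAT and MyD88 signalling, 2 were higher and 3 lower in Foxp3UP than in MockUP, with a median of -0.07 (3 and 6 with the replicate block). Socs2, a cytokine-induced feedback inhibitor, was at 55.9 ± 16.3 CPM in Foxp3UP and 23.7 ± 3.52 CPM in MockUP (log2 fold change 1.24, edgeR adjusted p = 0.000855). Socs1, an inhibitor of JAK kinases, fell by 0.41 (adjusted p = 0.0154). Traf6, which acts downstream of MyD88, was at -0.45 (adjusted p = 0.0305) and Stat3 at -0.46 (adjusted p = 0.0417), and each lost its call in 5 of 8 fits without a single library. The call of Traf6 was kept without MockUP 1, 3 or 4 and that of Stat3 without Foxp3UP 2, MockUP 1 or MockUP 4. Stat3 was named after its values were seen.

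Among 16 regulators of receptor genes, 1 was higher and 2 lower, with a median of -0.16 (2 and 8 with the replicate block). Prdm1, which encodes the effector factor Blimp-1, was at 129 ± 2.44 CPM in Foxp3UP and 75.1 ± 15.3 CPM in MockUP, and Tcf7, a factor of stem-like T cells, at 43.9 ± 8.56 CPM in Foxp3UP and 169 ± 32.5 CPM in MockUP. Id3, another factor of less differentiated T cells, was at 9.30 ± 1.29 CPM in Foxp3UP and 26.0 ± 4.50 CPM in MockUP. Their log2 fold changes were 0.78, -1.94 and -1.48 (edgeR adjusted p = 0.000884, 7.49e-07 and 0.000175).

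Among 12 genes responding to IL-2 and STAT5, 4 were higher and 1 lower in Foxp3UP, with a median of 0.19 (6 and 2 with the replicate block). Besides Socs2 the higher genes were Il10, an immunosuppressive cytokine, at 3.28, the protease granzyme B gene Gzmb at 1.05, and the perforin gene Prf1 at 0.94 (edgeR adjusted p = 5.96e-05, 0.000109 and 0.0476). The call of Prf1, named after its values were seen, was kept in 1 of 8 fits without a single library, the one without MockUP 1. Myc, a driver of growth, fell by 0.83 (adjusted p = 0.00684). Of 16 interferon gamma response genes 5 were higher and 1 lower, with a median of 0.40 (8 and 2 with the replicate block). Over all tested genes 6.08% were higher and 5.99% lower, or 13.3% and 12% with the replicate block. The guanylate-binding protein genes Gbp2, Gbp3, Gbp4 and Gbp7 rose by 0.72, 0.58, 0.58 and 0.57 (adjusted p = 0.00183, 0.00126, 0.00724 and 0.00143). In Foxp3DN against MockDN 0 genes of each of these lists were called by edgeR, where 0.00729% of all tested genes were called. In the test of the difference between the arms, fitted by group, 0.963% of all tested genes were called higher and 0.868% lower. Of these lists it called Gbp3, Socs2, Gzmb, Il10 and Prdm1 higher and Tcf7 and Id3 lower. Gbp3, Socs2 and Prdm1 kept that call in 5, 4 and 6 of 16 fits without a single library. The other called genes of these lists, such as Il27ra, Myc, Gbp2 and Socs1, were not shown to differ between the arms.

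Of the 12 genes listed as ligands of the receptors, 6 passed the filter, and Il18 was the 1 called in Foxp3UP against MockUP. In the difference between the arms Il18 was not called (edgeR adjusted p = 0.223). Ifng was at 420.3 ± 83.9 CPM in Foxp3UP and 493 ± 203 CPM in MockUP (edgeR adjusted p = 0.615) and was named after its values were seen. The genes Il7, Il12a, Il12b, Il33, Il4 and Il9 did not pass.

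Markers of other cells were summed in the same libraries. The myeloid list summed to 51.7 to 71.7 CPM in Foxp3UP and 34.6 to 53.2 CPM in MockUP, against 36.6 to 60.0 CPM in Foxp3DN and 36.8 to 45.6 CPM in MockDN, with 7 of 8 genes past the filter. Its member Cd68 was higher in Foxp3UP (edgeR adjusted p = 0.00207, log2 fold change 0.86). The CD4 T cell list summed to 16.1 to 20.7 CPM in Foxp3UP and 17.4 to 27.8 CPM in MockUP, with 2 of 3 genes past the filter. Of these, Cd40lg fell by 1.23 on the log2 scale (edgeR adjusted p = 0.0014). The 2 genes went in opposite directions with the replicate block, where 1 was called higher and 1 lower. The tumour and stroma list summed to 122 to 205 CPM in Foxp3UP and 112 to 156 CPM in MockUP, against 93.8 to 141 CPM in Foxp3DN and 82.4 to 126 CPM in MockDN, with 5 of 8 genes past the filter and 0 called by edgeR. The mast cell and basophil list, whose cells carry Il1rl1, summed to 1.70 to 3.08 CPM in Foxp3UP and 2.05 to 9.11 CPM in MockUP, with 1 of 6 genes past the filter. The NK cell list, whose cells carry Il12rb1, Il18rap and Il2rb, summed to 39.5 to 54.3 CPM in Foxp3UP and 27.9 to 65.8 CPM in MockUP, with 2 of 4 genes past the filter. The B cell list had 2 of 4 genes past the filter and 0 called by edgeR, and Ms4a1, a defining B cell marker, was at 0 in all libraries. The part of these cells in the results on the receptor chains was not tested.

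For each receptor chain the pair of genes most like it was found by Pearson's correlation of log2 CPM over the 16 libraries, which share the differences between groups and between sets of replicates, so the values describe these libraries only. Il12rb1 was followed most closely by Rcsd1 (r = 0.976) and F2rl2 (0.973), and Il18rap by Ggt1 (0.956) and Cd163l1 (0.948). Il2rb was closest to Lrp10 (0.971) and Egln1 (0.945), Il2ra to Lrrc32 (0.911) and Irak2 (0.905), and Il2rg to Plac8 (0.958) and Tbca (0.941). Il12rb2 was closest to Gata3 (0.951) and Gatad2a (0.920), Il18r1 to Xcl1 (0.910) and Samd3 (0.909), and Il1rl1 to Ptpn5 (0.935) and Abcg2 (0.923). Ifngr1 was closest to Rnf125 (0.956) and Plxdc1 (0.936), and Il7r to Tatdn2 (0.925) and Trim39 (0.850), the loosest match of the 10 chains.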

How the data were processed

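The deposited values are whole-number read counts for each gene, which the authors left unscaled beside coordinates and a summed exon length. As tools and build, the submitters' processing notes list Subread 1.6.3, STAR 2.6.1 and mm10. How multi-mapped reads and strand were handled is not given in the sources here. Symbols came from GENCODE release M21, which holds 55480 of the 55573 identifiers. Columns were matched to samples by the sample numbers in their titles, and 16 libraries were used.

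Genes were kept with filterByExpr at its minimum count of 10 (13711 genes), given TMM factors and tested by the quasi-likelihood F test of edgeR 4.0.16 (R 4.3.3) over 16 libraries with a term per group, with Benjamini-Hochberg adjustment at 0.05. CPM are TMM-scaled, and CPM per kilobase were divided by exonic length. The SE is the log2 fold change divided by the square root of F. 95% intervals are 1.96 SE to each side. Steps were checked on simulated counts. Each result was recomputed with library totals or RLE size factors, without the filter or with a stricter one (1 CPM in 4 libraries), with only the groups compared, with a replicate block, without each library, in replicates 1 and 2 or 3 and 4 alone, and with DESeq2 1.42.0.

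Whether equal numbers mark pairs was checked by correlating deviations from the group mean. For equal numbers r was 0.630, 0.213, 0.297 and 0.398 for Foxp3UP with MockUP and 0.364, 0.582, 0.545 and 0.298 for Foxp3DN with MockDN. Between the Mock groups it was 0.185, 0.107, 0.326 and 0.271. The numbers were taken as pairs in the fit with the replicate block, while the main fit has no term for them. MockUP 1, 2 and 4 each correlated better with another MockDN number, so the check did not show pairs between the Mock groups. Some libraries correlated better with another number of the same set of replicates (1 and 2, or 3 and 4): MockUP 3 with Foxp3UP 4 (0.364), MockUP 1 with MockDN 2 (0.594), MockUP 2 with MockDN 1 (0.124), MockUP 4 with MockDN 3 (0.298) and MockDN 4 with MockUP 3 (0.300). Where no source says that libraries came from separate animals, p-values measure the spread between these libraries, which may be technical. The receptor chains and gene lists were chosen with earlier results of these data known. The named genes were all 10 chains, Il1rap, Ifngr2, up to 4 called genes per list (smallest adjusted p first) and the 2 genes most like each chain; others are marked as named after their values were seen. Of the called genes of these lists, 1 is not reported here.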

Additional observations from a re-analysis of the deposited data

Results flagged for a closer look

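Within groups of 4 libraries, 3 of the 40 combinations of chain and group held a library far from the others by Dixon's ratio at 95%, and chance alone flags about 1 in 20 groups. Il7r was at 133 CPM in Foxp3DN 3, below the 176 to 182 CPM of the other Foxp3DN libraries. Il12rb2 was at 309.6 CPM in Foxp3UP 2, above 243 to 252 CPM in the others, and Il18r1 was at 138 CPM in MockDN 4, above 121 to 122 CPM in the others. The effect of Foxp3UP over MockUP differed from that of Foxp3DN over MockDN for Il12rb1, by 1.43 ± 0.16 on the log2 scale (SE, edgeR adjusted p = 8.93e-05), and for Il18rap, by -0.76 ± 0.13 (adjusted p = 0.00693).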

How the results depend on the processing

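Of 750 recomputed log2 fold changes of the receptor chains, 678 kept direction and side of the threshold, 15 lost and 16 gained a call, and 41 changed sign, none of them a called value; 80 of 80 levels stayed within 1 SD under the other scale. The replicate numbers were taken as pairs, though no source used here states it. A block on them also takes up differences between replicates 1 and 2 and replicates 3 and 4. With the replicate block 3475 genes and 7 chains were called in Foxp3UP against MockUP (1654 and 3 without it). In the difference between arms it called 1739 genes and 5 chains (251 and 2 without it). It changed no call in the DN arm or between the Mock groups. With only the groups compared, 658 genes were called in the UP arm. Replicates 1 and 2 alone gave 31 genes and 1 chain in the UP arm, 0 genes in the DN arm, and 2 genes and 0 chains in the difference. Replicates 3 and 4 alone gave 3025 genes and 6 chains, 3 genes, 1688 genes and 5 chains, and 35 genes between the Mock groups. DESeq2 called 651 genes in the difference and 8 between the Mock groups, where no filter gave 2. Leaving out single libraries gave 1064 genes (without Foxp3UP 1) to 1978 (without MockUP 1) and 2 to 5 chains in the UP arm, 99 to 518 genes in the difference (fewest without MockDN 1, most without MockUP 1) and 1 to 2 genes between the Mock groups.

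Signs changed as follows, where the cause was not tested and no value was called. Il1rl1 in the UP arm was 0.28 in replicates 3 and 4 alone and -0.28 to 0.040 without single libraries, Il12rb2 there -0.25 to 0.046, and Ifngr2 0.13 and -0.30 to 0.16. In the DN arm, replicates 1 and 2 alone gave 0.038 for Il12rb2, 0.026 for Il2ra and 0.021 for Il2rb, and leaving out single libraries gave -0.12 to 0.056, -0.12 to 0.019 and -0.10 to 0.022, with -0.42 to 0.17 for Il1rl1 and -0.0061 to 0.15 for Il18r1. In the difference, Il1rl1 was -0.22 in replicates 1 and 2 alone, Il2rg -0.063 and Il12rb2 0.023 in replicates 3 and 4 alone, and the ranges without single libraries were -0.30 to 0.29, -0.045 to 0.21 and -0.22 to 0.067. Between the Mock groups, replicates 1 and 2 alone gave 0.086 for Il12rb2 and -0.076 for Il18r1, and replicates 3 and 4 alone gave -0.030 for Il2ra, -0.20 for Il2rb and 0.052 for Il2rg. Ranges there were -0.24 to 0.051 for Il12rb2, -0.027 to 0.12 for Il18r1, -0.087 to 0.10 for Il2ra, -0.12 to 0.11 for Il2rb and -0.14 to 0.017 for Il12rb1. Counts were lowest for Il1rl1, at 73 to 213 a library, and for Ifngr2, at 19 to 50, and their SEs in the UP arm, 0.29 and 0.33, exceeded the change of 0.26 seen for Ifngr1; the part of depth in this was not tested.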
